A study of Mus musculus with 12 samples.

Results

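The genes described here are 10 components of bone morphogenetic protein (BMP) signalling. They are the ligands Bmp2, Bmp4 and Bmp6, the secreted BMP-binding modulator Bmper, the endothelial receptors Acvrl1 (ALK1) and Eng (endoglin), the inhibitory SMADs Smad6 and Smad7, and the target genes Id1 and Id3. They were picked by name from the 38127 genes counted in 12 bulk RNA-seq libraries of sorted mouse cells labelled as fetal liver (FL). All 10 passed the filter on low counts. Each of 4 populations had 3 libraries, and all were labelled as C57BL/6 FL and came from tissue dissociated with liberase and depleted of Ter119+ and CD45+ cells. P2 cells (Kit+CD24+, and lacking Ter119, CD45, CD54 and CD31) were sorted at E14.5, embryonic day 14.5. CD31+ cells (CD54+CD31+) and CD54+CD31- cells were sorted at the same age, and a second set of CD54+CD31- cells at E18.5. The study's text describes n = 3 independent litters for the E14.5 work, in which it names the sequenced cells as CD31+, P2 and CD324+. It names no CD54+CD31- population, so whether its CD324+ cells are the E14.5 CD54+CD31- libraries is not stated. The E18.5 libraries are not described there, so what separates those 3 libraries is not given in the sources used here.

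BMP ligands are secreted dimers that bring together type I and type II serine/threonine kinase receptors, which phosphorylate SMAD1, SMAD5 and SMAD9; these enter the nucleus with SMAD4 and switch on targets such as the Id genes and the inhibitory SMADs, which feed back on the pathway. ALK1 is a type I receptor used mainly by endothelium, where endoglin is its co-receptor and circulating BMP9 (gene Gdf2) and BMP10 are its ligands. In adult liver, sinusoidal endothelial cells are a main source of BMP2 and BMP6, which act with the hepatocyte co-receptor hemojuvelin to induce hepcidin, the hormone that limits iron uptake.

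Erythroid progenitor markers were highest in P2 cells, hepatoblast markers in E14.5 CD54+CD31- cells and endothelial markers in CD31+ cells, but some libraries stood apart. Total counts ranged from 40714017 to 64368883 per library. The genes Cdk8, Zc3h7a and Il1rapl1 together held from 10.8% of them, in E18.5 replicate 2, to 23.1%, in E14.5 CD54+CD31- replicate 2. Levels are given as CPM, read counts relative to library sizes that were scaled over all 12 libraries, and a gene was called higher or lower at an adjusted p below 0.05 in edgeR's quasi-likelihood test. The summed level of 16 endothelial markers (Pecam1, the gene of CD31, among them) was 10592 to 11580 CPM in CD31+ cells, 47.5 to 80.8 CPM in E14.5 CD54+CD31- cells and 221 to 276 CPM at E18.5. In P2 cells it was 77.4 CPM in replicate 1, 469 CPM in replicate 2 and 128 CPM in replicate 3, so replicate 2 stood apart. For the 10 genes, each difference that moved by over 1.5-fold without it is given both ways. For all other genes, log2 differences that involve P2 cells are given only with replicate 2 included. The E18.5 libraries, labelled as liver, held markers of lung epithelium: 15 lung epithelial markers summed to 12462 to 26201 CPM there and to at most 434 CPM in any other library, so the tissue of these 3 libraries is in doubt. Replicate 1 at E18.5 held the highest lung sum and the lowest sum of 16 hepatoblast markers, 6803 CPM against 44752 and 58294 CPM in the other two. At E14.5 the hepatoblast sum was 1.12% to 1.25% of the CD54+CD31- mean in CD31+ cells and 0.895% to 0.908% in P2 cells. The part of such RNA in low levels of other genes in those cells was not tested. E14.5 CD54+CD31- libraries held more than hepatoblast markers: 12 mesenchymal markers summed to 1178 to 1226 CPM there against 122 to 138 CPM in CD31+ and 62.2 to 92.5 CPM in P2 cells, and 10 macrophage markers to 138 to 236 CPM against at most 95.6 CPM in CD31+ and 9.59 CPM in P2 cells. The 12 erythroid progenitor markers summed to 4119 to 4358 CPM in P2 cells. They also summed to 543 to 848 CPM in E14.5 CD54+CD31- cells and to 492 to 659 CPM in CD31+ cells. The part of such RNA in the comparisons with P2 cells was not tested. Because these are bulk libraries, fewer cells of a type and less RNA per cell cannot be told apart.

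Promoters of 6 of the 10 genes (Bmp4, Bmp6, Bmper, Eng, Smad6 and Id3) were found in the RefSeq table of GRCm38.p6, as 250 bases before to 50 after a transcription start. Those of Id3, Eng and Bmp6 are shown because these genes, a target, a receptor and a ligand, were all higher in CD31+ cells than in both other E14.5 populations and are the ones whose window holds the short SMAD-binding letters CAGAC. All 3 lie on the plus strand, Id3 at chr4:136143572-136143871, Eng at chr2:32646345-32646644 and Bmp6 at chr13:38345466-38345765. The windows of Id3 and Bmp6 lie wholly inside the gene spans given below, which begin at 136143497 and 38345107. Their transcription starts are therefore downstream of the first base of those spans. Capitals mark CAGAC or its reverse complement GTCTG.
Id3: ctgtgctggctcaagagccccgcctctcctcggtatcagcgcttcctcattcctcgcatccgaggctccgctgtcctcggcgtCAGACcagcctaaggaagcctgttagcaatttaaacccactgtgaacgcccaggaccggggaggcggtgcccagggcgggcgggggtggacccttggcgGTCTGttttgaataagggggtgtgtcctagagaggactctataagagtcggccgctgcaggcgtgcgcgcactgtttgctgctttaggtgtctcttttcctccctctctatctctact
Eng: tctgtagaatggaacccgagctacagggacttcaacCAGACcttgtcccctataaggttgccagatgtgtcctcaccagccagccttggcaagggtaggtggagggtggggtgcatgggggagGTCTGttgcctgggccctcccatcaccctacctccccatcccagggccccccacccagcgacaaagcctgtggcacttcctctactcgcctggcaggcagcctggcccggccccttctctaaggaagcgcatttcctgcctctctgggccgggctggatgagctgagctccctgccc
Bmp6: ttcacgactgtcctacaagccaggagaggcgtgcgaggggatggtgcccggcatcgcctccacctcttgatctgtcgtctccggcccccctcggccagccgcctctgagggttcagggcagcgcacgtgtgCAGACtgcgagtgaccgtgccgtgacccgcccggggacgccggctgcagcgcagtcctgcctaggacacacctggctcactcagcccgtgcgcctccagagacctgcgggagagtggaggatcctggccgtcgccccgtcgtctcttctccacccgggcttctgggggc
The letters began at -167 and -68 from the start in Id3, at -214 and -127 in Eng, and at -119 in Bmp6. They are common: CAGAC on either strand was in 49.6% of 32851 promoter windows of this length. The GC-rich SMAD letters GGCGCC, which are their own reverse complement, were in 11.9% of windows and in 0 of these 6, and the ETS-family letters CCGGAA were in 14.9% and, of these 6, in Bmp4, at -95. A match is a description of the letters and not of binding.

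Between CD31+ cells and CD54+CD31- cells at E14.5, 8 of the 10 genes were higher in CD31+ cells, 0 were lower, and Bmp4 and Id1 did not pass the test. The median log2 difference of the 10 was 4.14, against -0.031 over all 15461 genes tested, of which 31.7% were called higher and 34.0% lower. Between CD31+ and P2 cells all 10 genes were higher in CD31+ cells, with a median of 4.71 against 0.13 over all genes, of which 39.4% were higher and 34.3% lower. Between P2 and CD54+CD31- cells 3 genes were higher in P2 cells (Bmp2, Bmp6 and Eng), 5 were lower (Bmp4, Smad6, Smad7, Id1 and Id3) and 2 did not pass (Bmper and Acvrl1). There the median was -1.21 against -0.011, and 33.8% of all genes were higher and 36.1% lower. In that comparison 13 of 16 endothelial markers were also higher in P2 cells and 0 were lower, with a median log2 difference of 2.21. Lower in P2 cells were 12 of 12 mesenchymal and 9 of 9 tested macrophage markers. The part of all these markers' cells in the results was not tested. These 3 comparisons share libraries and are not independent of each other. The count of 3 higher fell to 1 under several other settings, Eng alone passing, as described below.

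**Figure D1:**
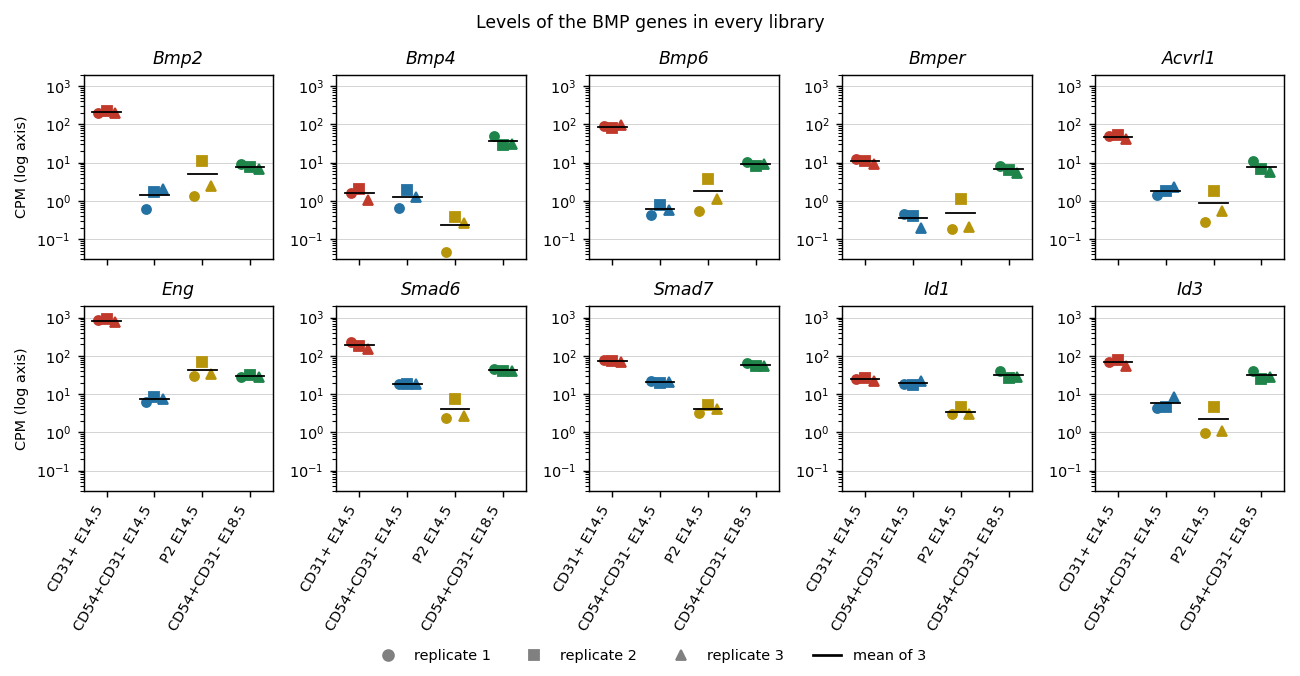
Each panel plots 1 gene's level in CPM on a log axis in the 12 libraries, with symbols for replicates and a line at the mean of 3. CD31+ libraries lie highest for Bmp2, Bmp6, Bmper, Acvrl1, Eng, Smad6, Smad7 and Id3, while Bmp4 lies highest in E18.5 CD54+CD31- libraries, at 29.3 to 50.4 CPM.

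Among the ligands, Bmp2 (chromosome 2, 133552159 to 133562885, plus strand, GRCm38) had the highest level per length in CD31+ cells. Its level was 202, 217 and 201 CPM in CD31+ replicates 1 to 3, against 0.622, 1.73 and 2.00 CPM in CD54+CD31- cells and 1.31, 11.2 and 2.41 CPM in P2 cells. Every CD31+ library was above every other library by more than 10-fold, whereas P2 and CD54+CD31- libraries overlapped. The log2 difference of CD31+ from CD54+CD31- cells was 7.14 ± 0.78 (SE, n = 3 per group, edgeR adjusted p = 1.676e-05) and from P2 cells 5.39 ± 0.69 (edgeR adjusted p = 4.425e-05), or 6.78 ± 0.36 without P2 replicate 2. P2 cells were above CD54+CD31- cells by 1.75 ± 0.71 (edgeR adjusted p = 0.0470). Without that replicate, the P2 library with the highest endothelial marker sum, the last difference was 0.35 ± 0.36 and did not pass (edgeR adjusted p = 0.402).

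Bmp6 (chromosome 13, 38345107 to 38500302, plus strand) followed the same order. Its level was 88.0, 78.2 and 94.4 CPM in CD31+ cells, 0.424, 0.787 and 0.592 CPM in CD54+CD31- cells, and 0.528, 3.73 and 1.12 CPM in P2 cells. CD31+ libraries again lay apart from all others and the P2 and CD54+CD31- ranges overlapped. The log2 difference was 7.17 ± 0.60 from CD54+CD31- cells (edgeR adjusted p = 2.134e-06) and 5.60 ± 0.52 from P2 cells (edgeR adjusted p = 3.969e-06), the latter 6.69 ± 0.28 without P2 replicate 2. The P2 difference from CD54+CD31- cells, 1.57 ± 0.63 (edgeR adjusted p = 0.0448), was 0.48 ± 0.33 without P2 replicate 2 (edgeR adjusted p = 0.217). Exons of Bmp6 share 224 bases, 5.74% of its exon length, with Txndc5 on the opposite strand. Txndc5, a protein disulphide isomerase of the endoplasmic reticulum, went the other way, at 93.4 to 116 CPM in CD31+ cells and 297 to 310 CPM in CD54+CD31- cells.

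Bmp4 (chromosome 14, 46383520 to 46390669, minus strand) did not follow Bmp2 and Bmp6. At E14.5 it was near the lower limit of these libraries, with 1.63, 2.05 and 1.05 CPM in CD31+ cells, 0.651, 1.92 and 1.26 CPM in CD54+CD31- cells, and 0.0459, 0.375 and 0.270 CPM in P2 cells, the last from 2, 18 and 14 reads. CD31+ and CD54+CD31- libraries overlapped, and their log2 difference was 0.30 ± 0.55 (edgeR adjusted p = 0.648). It was -0.032 without CD54+CD31- replicate 1 and -0.012 without CD31+ replicate 2. P2 libraries lay below all the others, by 2.75 ± 0.62 from CD31+ cells (edgeR adjusted p = 0.00219) and with a log2 difference of -2.45 ± 0.62 from CD54+CD31- cells (edgeR adjusted p = 0.00506).

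Bmper (chromosome 9, 23223076 to 23485200, plus strand) encodes a secreted protein that binds BMPs and tunes their activity in vessels. Its level was 12.6, 10.9 and 9.35 CPM in CD31+ cells, 0.453, 0.409 and 0.197 CPM in CD54+CD31- cells, and 0.184, 1.08 and 0.212 CPM in P2 cells. CD31+ cells were higher by 4.96 ± 0.60 than CD54+CD31- cells (edgeR adjusted p = 3.662e-05) and by 4.47 ± 0.56 than P2 cells (edgeR adjusted p = 3.703e-05) on the log2 scale, the second 5.77 ± 0.37 without P2 replicate 2. P2 and CD54+CD31- libraries overlapped, and their difference of 0.48 ± 0.65 (edgeR adjusted p = 0.524) became -0.81 ± 0.42 without P2 replicate 2 (edgeR adjusted p = 0.110).

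Both endothelial receptors were higher in CD31+ cells. Eng (chromosome 2, 32646595 to 32682669, plus strand) was the highest of the 10 genes there per length, and stood at 842, 896 and 783 CPM, against 6.25, 8.25 and 7.48 CPM in CD54+CD31- cells and 29.0, 68.9 and 33.1 CPM in P2 cells. The 3 populations did not overlap. CD31+ cells were higher than CD54+CD31- cells by 6.84 ± 0.35 (edgeR adjusted p = 5.813e-08) and than P2 cells by 4.28 ± 0.31 (edgeR adjusted p = 6.879e-07) on the log2 scale. Unlike Bmp2 and Bmp6, the excess of Eng in P2 over CD54+CD31- cells, 2.56 ± 0.29 (edgeR adjusted p = 2.088e-05), passed the test under every alternative, with values from 2.07 to 2.77. As a share of the CD31+ mean, Eng stood at 3.45%, 8.20% and 3.94% in P2 replicates 1 to 3, beside 0.691%, 4.19% and 1.15% for the endothelial marker sum. In P2 against CD54+CD31- cells 13 of the 16 endothelial markers were higher and 0 lower, with a median of 2.21 on the log2 scale. The part of endothelial RNA in the difference of Eng was not tested. Exons of Eng share 61 bases, 1.51% of its exon length, with Fpgs, a folate enzyme gene on the opposite strand, at 32.2 to 41.6 CPM in CD31+ and 114 to 121 CPM in CD54+CD31- cells.

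Acvrl1 (chromosome 15, 101128522 to 101145336, plus strand) was at 48.1, 53.0 and 42.1 CPM in CD31+ cells. In CD54+CD31- cells it was at 1.41, 1.76 and 2.25 CPM, and in P2 cells at 0.276, 1.85 and 0.539 CPM. CD31+ cells were higher by 4.71 ± 0.46 (edgeR adjusted p = 7.728e-06) and 5.74 ± 0.49 (edgeR adjusted p = 2.149e-06) on the log2 scale, respectively, the second 6.84 ± 0.29 without P2 replicate 2. P2 replicates 1 and 3 lay below all CD54+CD31- libraries and replicate 2 among them, and the difference of -1.04 ± 0.50 did not pass (edgeR adjusted p = 0.0868). Without P2 replicate 2 it was -2.13 ± 0.30 and passed (edgeR adjusted p = 5.889e-05).

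**Figure D2:**
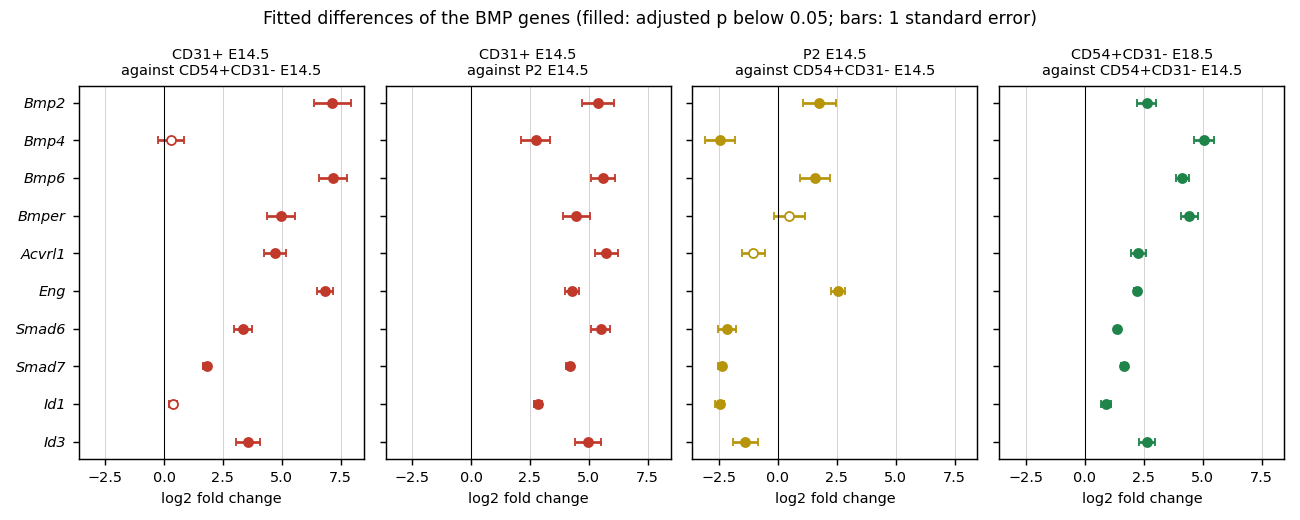
Points give the log2 fold change of each gene in 4 comparisons, bars 1 SE of the fit, and filled points an adjusted p below 0.05. In the comparison of P2 with CD54+CD31- cells the genes lie on both sides of 0, from -2.48 for Id1 to 2.56 for Eng.

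The inhibitory SMADs were graded over the 3 E14.5 populations, from CD31+ through CD54+CD31- to P2 cells, with no overlap between libraries. Smad6 (chromosome 9, 63953076 to 64022059, minus strand), the inhibitor most selective for BMP receptors, was at 235, 177 and 150 CPM in CD31+ cells, 18.4, 18.2 and 18.1 CPM in CD54+CD31- cells, and 2.34, 7.47 and 2.68 CPM in P2 cells. CD31+ cells were higher than CD54+CD31- cells by 3.35 ± 0.37 on the log2 scale (edgeR adjusted p = 2.04e-05), and the difference of P2 from CD54+CD31- cells was -2.15 ± 0.37 (edgeR adjusted p = 0.000440). Smad7 (chromosome 18, 75367529 to 75395935, plus strand), which inhibits both BMP and TGF-beta receptors, was at 77.9, 74.9 and 69.6 CPM, 22.4, 19.7 and 21.3 CPM, and 3.24, 5.06 and 4.02 CPM in the same order. Its corresponding log2 differences were 1.80 ± 0.14 (edgeR adjusted p = 1.19e-06) and -2.38 ± 0.15 (edgeR adjusted p = 1.937e-07). Against P2 cells, CD31+ cells were higher by 5.50 ± 0.42 for Smad6 and by 4.18 ± 0.16 for Smad7 (edgeR adjusted p = 9.605e-07 and 3.071e-08). Without P2 replicate 2 the Smad6 difference was 6.22 ± 0.22 in CD31+ against P2 cells and -2.87 ± 0.20 in P2 against CD54+CD31- cells.

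The Id targets, which encode helix-loop-helix proteins that block basic helix-loop-helix factors, differed from each other. Id3 (chromosome 4, 136143497 to 136145755, plus strand) was at 71.1, 79.8 and 55.4 CPM in CD31+ cells, 4.41, 4.50 and 8.24 CPM in CD54+CD31- cells, and 0.965, 4.64 and 1.08 CPM in P2 cells. CD31+ cells were higher than CD54+CD31- cells by 3.57 ± 0.51 (edgeR adjusted p = 0.000122) and than P2 cells by 4.95 ± 0.55 (edgeR adjusted p = 1.434e-05), or by 6.07 ± 0.33 without P2 replicate 2. P2 cells had less Id3 than CD54+CD31- cells, with a log2 difference of -1.38 ± 0.52 (edgeR adjusted p = 0.0347), but P2 replicate 2 fell within the CD54+CD31- range. That call was lost without CD54+CD31- replicate 3 (-1.02, edgeR adjusted p = 0.144), without P2 replicate 1 (-1.05, adjusted p = 0.0886) and without P2 replicate 3 (-1.03, adjusted p = 0.113). Without P2 replicate 2 the difference was instead larger, at -2.50 ± 0.31 (edgeR adjusted p = 2.334e-05).

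Id1 (chromosome 2, 152736251 to 152737410, plus strand) was at 25.5, 27.1 and 22.4 CPM in CD31+ cells and 18.6, 17.0 and 22.1 CPM in CD54+CD31- cells. Each CD31+ library was above each CD54+CD31- library, but the log2 difference of 0.37 ± 0.17 did not pass the test (edgeR adjusted p = 0.0772). It passed in 4 alternatives, with values between 0.37 and 0.47 and adjusted p from 0.0229 to 0.0464, and over all alternatives it ranged from 0.21 to 0.47. P2 cells stood at 2.99, 4.52 and 3.00 CPM, below both, with a log2 difference of -2.48 ± 0.18 from CD54+CD31- cells (edgeR adjusted p = 7.249e-07) and 2.85 ± 0.18 in the CD31+ comparison (edgeR adjusted p = 3.422e-07). Of the 2 targets, Id3 therefore differed between CD31+ and CD54+CD31- cells by more than 10-fold on the mean CPM, 68.8 ± 12.4 against 5.72 ± 2.19 (SD, n = 3), and Id1 by far less. Megakaryocyte markers were also higher in CD31+ cells, 8 of 8 in both comparisons, with sums of 407 to 758 CPM against 63.7 to 79.8 CPM in CD54+CD31- and 46.0 to 118 CPM in P2 cells, and their part in the results for CD31+ cells was not tested.

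Per kb of exon, levels of different genes can be set side by side. In CD31+ cells Eng led at 208 ± 14.0 CPM per kb (SD, n = 3), followed by Smad6 at 58.4 ± 13.6 and Bmp2 at 58.2 ± 2.57, which did not differ beyond their spread. Bmp6 (22.3 ± 2.10) and Id1 (21.5 ± 2.05) were also within each other's spread, and Bmp4 was lowest at 0.701 ± 0.224 CPM per kb. In CD54+CD31- cells at E14.5 Id1 led at 16.6 ± 2.26 CPM per kb, while Bmp2, Bmp6 and Bmper were at 0.408, 0.154 and 0.0731 CPM per kb. P2 cells had Eng first, at 10.8 ± 5.43, and Bmper and Bmp4 last, both at 0.102 CPM per kb. At E18.5 CD54+CD31- cells had Id1 (26.9 ± 6.68), Id3 (17.4 ± 5.04) and Bmp4 (16.4 ± 5.24) first, with overlapping spreads.

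**Figure D3:**
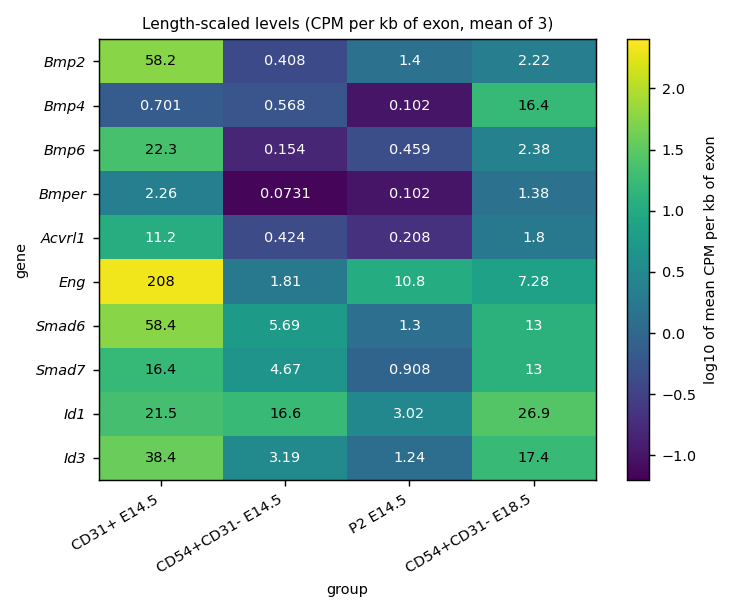
The colour and the printed value give the mean CPM per kb of exon of each gene (rows) in each population (columns), n = 3. Eng in CD31+ cells is highest at 208 and Bmper in E14.5 CD54+CD31- cells lowest at 0.0731.

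With age, all 10 genes were higher in E18.5 than in E14.5 CD54+CD31- cells, with no overlap between libraries. Their median log2 difference was 2.45, against 0.033 over all 15863 genes tested, of which 35.9% were called higher and 33.5% lower. The gate was the same at both ages, but the libraries differed in composition. Every E18.5 library held lung epithelial markers at a level seen in no E14.5 library, so age and tissue cannot be told apart. The words "with age" name this comparison and not a cause. Of the lung epithelial markers 14 of 15 were called higher at E18.5, and of the mesenchymal markers 11 of 12, with sums of 4290 to 4508 CPM against 1178 to 1226 CPM. All 16 endothelial markers were also higher, with a median log2 difference of 2.15, and the part of these cells in the results was not tested.

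Bmp4 had the largest difference of the 10 with age, at 50.4, 29.3 and 31.0 CPM at E18.5, a log2 difference of 5.06 ± 0.43 (edgeR adjusted p = 9.075e-05). These 3 libraries were above every E14.5 library of any population, the highest of which held 2.05 CPM. Bmper, at 8.22, 6.41 and 5.36 CPM, was higher by 4.43 ± 0.37 (edgeR adjusted p = 8.241e-05), and Bmp6, at 10.5, 8.10 and 9.18 CPM, by 4.14 ± 0.26 (edgeR adjusted p = 3.392e-05). Bmp2, at 9.32, 7.48 and 6.84 CPM, was higher by 2.63 ± 0.40 (edgeR adjusted p = 0.00116). The receptors Acvrl1 (10.7, 6.65 and 5.66 CPM) and Eng (27.4, 32.4 and 28.6 CPM) were higher by 2.28 ± 0.32 and 2.19 ± 0.13 (edgeR adjusted p = 0.000734 and 2.747e-05), close to the median of the endothelial markers.

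Downstream of the receptors, Id3 was at 41.4, 24.4 and 27.7 CPM at E18.5 and higher by 2.64 ± 0.33 (edgeR adjusted p = 0.000431). Smad7 (66.2, 54.8 and 54.8 CPM) and Smad6 (44.9, 40.2 and 39.9 CPM) were higher by 1.66 ± 0.12 and 1.38 ± 0.10 (edgeR adjusted p = 5.979e-05 and 4.661e-05). Id1, at 40.2, 26.2 and 27.4 CPM, differed least, by 0.89 ± 0.20 (edgeR adjusted p = 0.00709). Replicate 1, with the highest lung and the lowest hepatoblast sum, had the highest level at E18.5 of 9 genes, all but Eng. Without it all 10 remained higher, Bmp4 by 4.74 ± 0.28 and Id1 by 0.64 ± 0.12 (edgeR adjusted p = 0.00130). The levels here share 1 scaling over 12 libraries and the fit used the 6 compared, and the median of all genes moved by -0.17 with all 12 libraries in one fit.

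Set against the level in CD31+ cells, the 10 genes at E18.5 spread over 3 orders of magnitude. The endothelial marker sum at E18.5 was 1.97% to 2.47% of the CD31+ mean. Bmp2 (3.31% to 4.50%) and Eng (3.26% to 3.85%) lay nearest to that share. Bmp6 was at 9.32% to 12.1%, Acvrl1 at 11.9% to 22.4%, Smad6 at 21.3% to 24.0%, Id3 at 35.4% to 60.2%, Bmper at 49.0% to 75.2% and Smad7 at 73.9% to 89.4%. Id1 (105% to 161%) and Bmp4 (1856% to 3200%) exceeded the level in CD31+ cells. In P2 cells replicate 2 was the highest of the 3 libraries for all 10 genes and for the endothelial sum. For Bmp4 it had 18 reads against 14 in replicate 3. The genes spread in P2 cells too: in replicate 1 they ran from 0.578% for Acvrl1 to 11.9% for Id1, beside 0.691% for the endothelial sum.

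**Figure D4:**
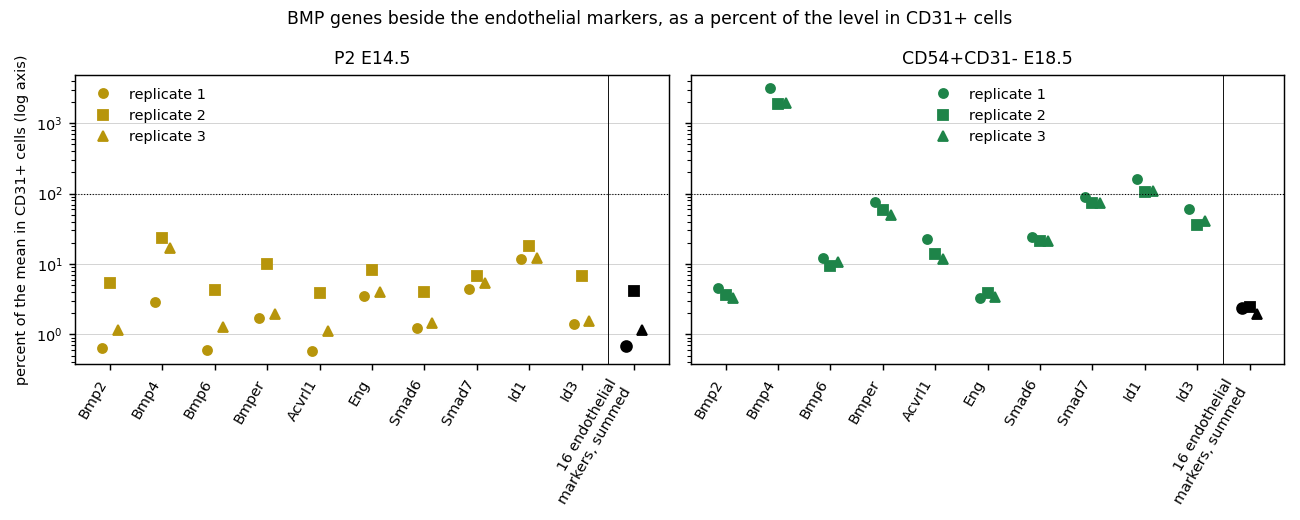
Each point is 1 library's level as a percent of the mean in CD31+ cells, on a log axis, for the 10 genes and for the sum of 16 endothelial markers (black), in P2 cells and in E18.5 CD54+CD31- cells. P2 replicate 2 (squares) lies highest throughout, and at E18.5 Bmp4 lies far above the 100% line, at 1856% to 3200%.

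Of 57 other BMP pathway genes that were looked for, all were found in the counts. At E14.5, 43 passed the filter: 15 were higher and 15 lower in CD31+ than in CD54+CD31- cells, close to the 31.7% and 34.0% of all genes. Against P2 cells 28 were higher and 2 lower in CD31+ cells (all genes 39.4% and 34.3%), and 4 were higher and 30 lower in P2 than in CD54+CD31- cells (33.8% and 36.1%). With age 49 were tested, of which 34 were higher and 5 lower at E18.5 (35.9% and 33.5%). The shares of all genes in each comparison also stand as the background of the sublist counts that follow, many of which rest on few genes. Their medians were 0.059, 1.77, -1.86 and 1.83 on the log2 scale in that order.

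Of 10 other receptors tested, 8 were lower in P2 than in CD54+CD31- cells (36.1% of all genes), 1 was higher and 1 did not pass. Between CD31+ and CD54+CD31- cells 2 were higher, 3 lower and 5 did not pass. Bmpr1a, the type I receptor ALK3 that hepatocytes use for hepcidin, was at 68.0 to 83.9 CPM in CD54+CD31- cells, 2.98 to 4.28 CPM in CD31+ cells and 2.18 to 2.37 CPM in P2 cells. Its log2 difference from CD54+CD31- cells was -4.37 ± 0.15 in CD31+ cells (edgeR adjusted p = 2.813e-09) and -5.08 ± 0.16 in P2 cells (edgeR adjusted p = 1.13e-09). The hemojuvelin gene, listed in the counts under its former name Hfe2, was at 43.2 ± 2.16 CPM (SD, n = 3) in CD54+CD31- cells and at 0.541 and 0.457 CPM in CD31+ and P2 cells, with log2 differences of -6.32 ± 0.17 and -6.58 ± 0.17 (edgeR adjusted p = 5.378e-10 and 3.709e-10). The hepatoblast marker sum in CD31+ and P2 cells was 1.12% to 1.25% and 0.895% to 0.908% of its CD54+CD31- mean. Its part in these low levels was not tested. Acvr1, which encodes the type I receptor ALK2, was at 110 ± 22.4 CPM in CD31+ cells and 73.7 ± 9.51 CPM in CD54+CD31- cells, a difference that did not pass (0.56 ± 0.29, edgeR adjusted p = 0.110), and at 3.66 ± 2.03 CPM in P2 cells.

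Bmpr2, the main type II receptor, was higher in CD31+ cells (279 ± 26.6 CPM) than in CD54+CD31- cells (59.3 ± 7.79 CPM) by 2.23 ± 0.14 on the log2 scale (edgeR adjusted p = 2.188e-07), and P2 cells had 37.1 ± 5.39 CPM. Tgfbr3 (betaglycan), a co-receptor for TGF-beta that also binds BMPs, was higher in CD31+ cells by 2.65 ± 0.11 (edgeR adjusted p = 1.481e-08) and was the receptor that was higher in P2 than in CD54+CD31- cells, by 1.15 ± 0.11 (edgeR adjusted p = 4.522e-06). The type II receptor Acvr2b was lower in CD31+ than in CD54+CD31- cells, at -1.08 ± 0.21 (edgeR adjusted p = 0.000971). Acvr2a (-0.15 ± 0.10), Bmpr1b (0.059 ± 0.61), the hemojuvelin relative Rgma (-0.21 ± 0.65) and their receptor Neo1 (-0.36 ± 0.20) did not pass there, with edgeR adjusted p from 0.142 to 0.938. In P2 cells Acvr2a, Acvr2b, Rgma and Neo1 were lower than in CD54+CD31- cells, by log2 differences of -2.34, -2.44, -2.85 and -4.10, and Bmpr1b at -0.90 did not pass (edgeR adjusted p = 0.233). Against P2 cells, 8 receptors were higher in CD31+ cells, from 0.70 for Bmpr1a to 4.91 for Acvr1, and Bmpr1b (0.96) and Hfe2 (0.27) did not pass. Rgmb had 0 reads in all 12 libraries.

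All 4 signal-carrying SMADs were lower in P2 than in CD54+CD31- cells. Smad1 was at 1.22 to 4.04 CPM in P2 cells against 35.3 to 47.8 CPM, a log2 difference of -4.24 ± 0.35 (edgeR adjusted p = 1.773e-06). Smad5 (-1.39 ± 0.09), Smad9 (-1.84 ± 0.44) and the shared partner Smad4 (-0.84 ± 0.09) differed less. Between CD31+ and CD54+CD31- cells Smad4 (0.90 ± 0.09, edgeR adjusted p = 7.229e-06) and Smad5 (0.38 ± 0.09, edgeR adjusted p = 0.00320) were higher in CD31+ cells, and Smad1 (0.67 ± 0.30, edgeR adjusted p = 0.0703) and Smad9 (-0.81 ± 0.42, edgeR adjusted p = 0.112) did not pass. Against P2 cells CD31+ cells were higher for Smad1 (4.91), Smad5 (1.77) and Smad4 (1.74), and Smad9 at 1.03 did not pass (edgeR adjusted p = 0.0522).

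**Figure D5:**
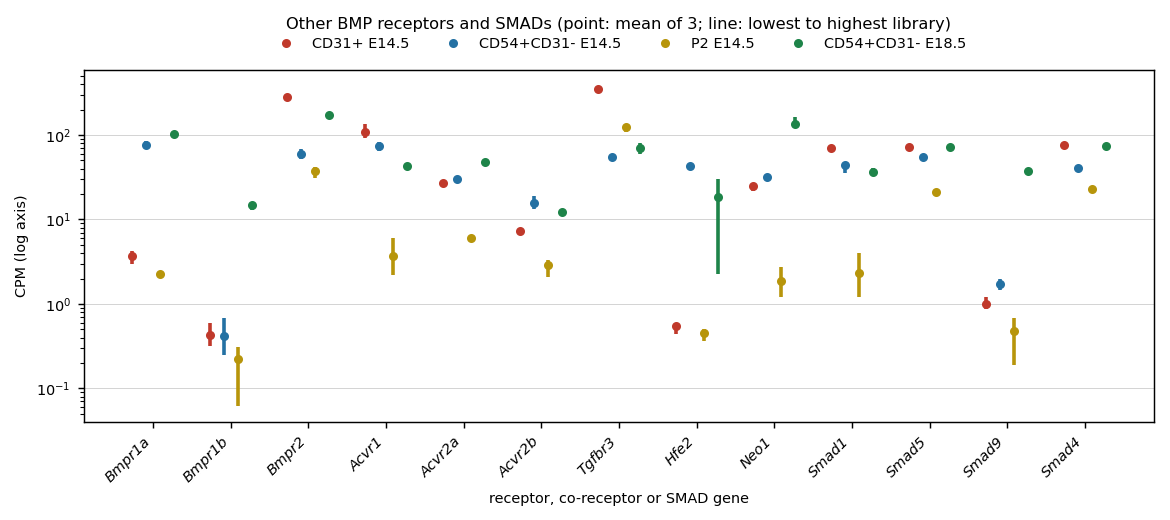
Points give the mean level in CPM on a log axis and lines the lowest to highest of 3 libraries for 13 receptor, co-receptor and SMAD genes in the 4 populations. Bmpr1a and Hfe2 are high in E14.5 CD54+CD31- cells (75.5 and 43.2 CPM) and Smad1 is low in P2 cells (2.33 CPM).

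Among 8 other ligands tested at E14.5, 5 were lower in CD31+ than in CD54+CD31- cells and 1 was higher. Bmp7 was at 42.4 ± 2.41 CPM in CD54+CD31- cells and at 0.801 and 0.663 CPM in CD31+ and P2 cells, the reverse of Bmp2 and Bmp6, with log2 differences of -5.73 ± 0.14 and -6.02 ± 0.15 (edgeR adjusted p = 4.328e-10 and 2.833e-10). The hepatoblast marker sum was at 1.12% to 1.25% of its CD54+CD31- mean in CD31+ cells and at 0.895% to 0.908% in P2 cells. The part of such RNA in these low levels, and in those of Fst, Chrd and Hamp below, was not tested. Bmp8b was lower in CD31+ cells at -2.40 ± 0.38 and Bmp8a higher at 3.35 ± 0.53 (edgeR adjusted p = 0.000261 and 0.000256). Gdf2, the ALK1 ligand BMP9, was at 6.73 ± 1.89 CPM in CD54+CD31- cells and lower in P2 cells, at -2.98 ± 0.33 (edgeR adjusted p = 1.413e-05). Gdf3, a ligand of the pluripotent epiblast, was at 14.9 ± 1.09 CPM in P2 cells and at most at 1.48 CPM in every other library, higher in P2 cells by 3.97 ± 0.47 than in CD54+CD31- cells (edgeR adjusted p = 2.347e-05) and with a log2 difference of -4.77 ± 0.48 in CD31+ against P2 cells (edgeR adjusted p = 6.973e-06). In that last comparison 3 of 8 ligands were higher, with Bmp8a at 2.21 and Bmp5 at 1.12, and 1 was lower, and in P2 against CD54+CD31- cells 1 was higher and 5 lower.

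Of 14 antagonists and modulators 5 were higher and 5 lower in CD31+ than in CD54+CD31- cells, near the 31.7% and 34.0% of all genes. The BMP and activin binder follistatin (Fst) and chordin (Chrd) were lower, at -5.61 ± 0.45 and -5.38 ± 0.65 (edgeR adjusted p = 1.777e-06 and 3.756e-05). Sost, better known as the WNT and BMP antagonist sclerostin, had 330 reads in the CD31+ libraries and 2 in CD54+CD31- libraries, a ratio of levels of 102 with an exact 95% counting interval of 27.9 to 842. Against P2 cells 8 of 14 were higher in CD31+ cells and 1 lower, led by Sost (5.44), the follistatin-like Fstl1 (4.46) and the chordin-like Kcp (3.85). In P2 against CD54+CD31- cells 10 were lower and 1 higher, with Fst at -6.02 and Chrd at -5.46.

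Of the other targets, between CD31+ and CD54+CD31- cells, 5 of 7 were higher in CD31+ cells and 2 lower. Id4 was at 14.5 ± 1.95 CPM in CD31+ cells and 0.299 ± 0.140 CPM in CD54+CD31- cells, higher by 5.59 ± 0.62 (edgeR adjusted p = 1.98e-05), and the haematopoietic and endothelial factor Gata2 was higher by 5.44 ± 0.38 (edgeR adjusted p = 5.684e-07). The hepcidin gene Hamp was lower in CD31+ cells at -5.39 ± 0.45 (edgeR adjusted p = 2.324e-06), with 3.73 to 6.96 CPM in CD54+CD31- cells and at most 0.127 CPM in CD31+ cells. Against P2 cells 6 of 7 were higher in CD31+ cells, with Id4 at 5.16 and Id2 at 4.20, and Msx1 had 63 reads against 2, a ratio of 25.8 (exact 95% counting interval 6.86 to 218). P2 cells had 3 targets lower than CD54+CD31- cells and 1 higher, with Hamp at -6.23, Id2 at -5.16 and Gata2 at 2.92.

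With age, 8 of 11 other ligands, 7 of 10 receptors, 3 of 4 signal-carrying SMADs, 11 of 15 antagonists and modulators and 5 of 9 targets were higher at E18.5, beside 35.9% of all genes. In the same comparison lung epithelial markers had a median log2 difference of 10.7 and mesenchymal markers one of 2.95. The part of these cells, and of the doubtful tissue, in the differences below was not tested. Bmp3, a ligand that opposes other BMPs, went from 0 to 0.283 CPM at E14.5 to 32.8 to 43.5 CPM, a log2 difference of 8.78 ± 0.66 (edgeR adjusted p = 6.01e-05). Gdf6 was higher by 4.43 ± 0.51 (edgeR adjusted p = 0.000308), and Gdf5 had 94 reads against 1, a ratio of 47.3 (exact 95% counting interval 8.28 to 1886). The receptors Rgma (6.22), Bmpr1b (5.34), Neo1 (2.28), Bmpr2 (1.72), Acvr2a (0.86), Bmpr1a (0.61) and Tgfbr3 (0.55) were higher, Acvr1 was lower (-0.59), and Hfe2 (-1.05) and Acvr2b (-0.14) did not pass. Smad9 was higher by 4.62 ± 0.16 (edgeR adjusted p = 1.38e-05), Smad4 by 1.05 and Smad5 by 0.58, and Smad1 (-0.070) did not pass. Among the antagonists Nbl1 (7.56) and Fstl1 (6.03) were higher, and among the targets Atoh8 (5.04), Hey2 (4.82) and Id4 (3.86). Hfe2 and Hamp were lowest at E18.5 in replicate 1, at 2.28 and 0.263 CPM, the library with the lowest hepatoblast sum.

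Over the 12 libraries, the tested genes most like each of the 10 were taken by Pearson's r of log2(CPM + 0.5) over 16643 genes, as a description of libraries that fall into 4 populations. Bmp2 was most like Cd93 (r = 0.997), Gm13889 and Tek, the last an endothelial receptor kinase, and Bmp6 like Akap12 (r = 0.999), Npr1 and Dpysl3. Bmper was closest to Tinagl1 (r = 0.993), Slit2 and Fhod1, Acvrl1 to Slc43a2 (r = 0.997), Ttc7b and Hip1, and Eng to Mef2c (r = 0.992), Hspa12b and Olfm1. Smad6 was nearest to Sema4c (r = 0.995), Nr2f2 and Mdfi, and Smad7 to Pcnx (r = 0.998), Smurf2 and Ston1, of which Smurf2 is a ubiquitin ligase that SMAD7 brings to receptors. Id1 resembled Cgnl1 (r = 0.995), Anxa2 and Carmil1, Id3 resembled Tns2 (r = 0.990), Nod1 and Dpp4, and Bmp4 resembled Pmp22 (r = 0.992), Pdlim2 and Scarb2. Among the 10 themselves r was highest for Bmp2 with Bmp6 (0.973) and lowest for Bmp4 with Eng (-0.092) and with Bmp2 (0.082).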

How the data were processed

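The authors sorted the cells, extracted total RNA, removed ribosomal RNA, made stranded libraries with the SMARTer Stranded Total RNA-Seq Pico kit, and sequenced single reads. Per the labels and the submitters' processing notes, reads were trimmed with cutadapt 1.11, aligned to GRCm38 with STAR 2.5.0a and assigned to genes with featureCounts 1.4.6-p3. The strand setting and the treatment of reads with several alignments are not given in the sources used here, so values of genes that overlap on opposite strands are uncertain: Bmp6 and Txndc5, Eng and Fpgs, Bmp4 and Gm15217 (89 shared exon bases) and Acvrl1 and Gm16031 (127). The deposited files hold raw counts per gene, used for every test, and a score that the authors made by multiplying each count by 1 factor per library and rounding, used only to read that factor.

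Counts of 38127 genes were filtered with filterByExpr, scaled by TMM and tested with the quasi-likelihood test of edgeR 4.0.16 (R 4.3.3), and p-values were adjusted over all tested genes by the Benjamini-Hochberg method with a threshold of 0.05. A fit of the 9 libraries of E14.5 gave the 3 comparisons at that age, and a fit of the 6 CD54+CD31- libraries gave the comparison with age. Standard errors were derived from the fold change and the F statistic. Pairs of replicates differed by more than sampling noise. Coordinates and exon lengths are from GENCODE vM21, in which 37932 identifiers were found. At these depths the 3 libraries per group, more than counting error, limit the precision, and counting intervals cover counting error only. The test was tried on simulated counts with known changes in few genes. In these data most tested genes were called, so no conclusion is drawn from that trial.

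The members, lists and tests were chosen with earlier results of these data known. The genes named were the 10 members, the other receptors and signal-carrying SMADs, the 3 largest called changes per comparison in each other pathway list, and the 3 genes most like each member. Txndc5, Fpgs, Rgmb's count of 0 and Hamp at E18.5 were named after their values were seen. One gene that the rule names is not reported here. The alternatives were DESeq2 1.42.0, its size factors in edgeR, a filter that kept every gene with a count, a stricter one that asked for 10 counts per library, genes above 1% of a library left out, a replicate block, all 12 libraries in one fit, only the 6 compared, the authors' factors, and each library left out in turn.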

Additional observations from a re-analysis of the deposited data

How the results depend on the processing

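Over 21 alternatives, 639 of 673 values for the 10 genes kept their direction and their side of the threshold, 26 were no longer past it, 5 came past it and 3 changed sign. Those 3, none past the threshold, were Bmp4 in CD31+ against CD54+CD31- cells without CD54+CD31- replicate 1 (-0.032) or CD31+ replicate 2 (-0.012), and Bmper in P2 against CD54+CD31- cells without P2 replicate 2 (-0.81). With a library left out these ranged from -0.032 to 0.63 and from -0.81 to 0.87. The 10 genes called higher against P2 cells and with age stayed called wherever they were tested. A minimum of 10 counts in every library left out Bmper, and at E14.5 Bmp4, so these have no value there.

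The count of genes higher in P2 than in CD54+CD31- cells was 3, and 1 with a minimum of 10 counts, the replicate block, only the 6 libraries compared or the authors' factors. It was 1 to 3 with a library left out, and 1 without any single CD54+CD31- or CD31+ library or P2 replicate 2. Bmp2 and Bmp6 lost their call each time, with adjusted p of 0.0568 and 0.0574 under the replicate block, and the cause was not tested. The replicate numbers did not meet the criterion for pairing, a correlation over 0.1 in every pair: correlations of same-numbered deviations ran from 0.00379 to 0.169, and each library correlated best with its own number in 3, 3, 1 and 2 of 3 cases in the 4 comparisons, which is a hint of pairing in the comparisons with CD31+ cells. The block gave 10326, 11460, 10910 and 10329 called genes against 10150, 11395, 10815 and 11014, and it changed no other call of the 10 genes.

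Other pathway genes lower in CD31+ than in P2 cells numbered 2, and 1 under DESeq2, a minimum of 10 counts, all 12 libraries or the authors' factors, and 1 to 2 with a library left out (1 without CD54+CD31- replicate 3, CD31+ replicate 1 or 3, or P2 replicate 3). With age, a minimum of 10 counts left 33 of them tested and gave 21 higher and 3 lower in place of 34 and 5. The authors' factors moved the median of all genes by 0.11, 0.37, -0.26 and 0.23 in the 4 comparisons, and the share of called genes that were higher from 53.4% to 66.1% in CD31+ against P2 cells and from 48.4% to 38.2% in P2 against CD54+CD31- cells. Under them the direction of each of the 10 genes was unchanged.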

Other observations

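The neighbouring TGF-beta and activin branch, 15 genes chosen after the data were seen, was higher in CD31+ than in CD54+CD31- cells for 6 genes and lower for 4, near the 31.7% and 34.0% of all genes. Tgfb1, the main TGF-beta ligand of blood and vessels, was at 221 ± 28.0 CPM (SD, n = 3) in CD31+ cells, 106 ± 6.76 CPM in P2 cells and 22.8 ± 5.92 CPM in CD54+CD31- cells, so that P2 cells, low in most BMP genes, were higher than CD54+CD31- cells by 2.19 ± 0.18 on the log2 scale (edgeR adjusted p = 1.394e-06). Tgfbr2, the type II TGF-beta receptor, was lower in P2 than in CD54+CD31- cells at -3.23 ± 0.25 (edgeR adjusted p = 1e-06). The activin subunit gene Inhbb was at 18.8 to 22.6 CPM in CD31+ cells and Inhba at 4.47 to 5.12 CPM in CD54+CD31- cells, the first below 1.3 CPM and the second below 0.2 CPM in the other. With age 11 of the 15 were higher in CD54+CD31- cells and 1 was lower (35.9% and 33.5% of all genes), with Tgfb2 at 153 to 194 CPM at E18.5 against 1.33 to 1.70 CPM at E14.5, a log2 difference of 7.03 ± 0.20 (edgeR adjusted p = 1.208e-05), in the libraries that also hold the lung epithelial and mesenchymal markers.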
